A study of Oryza sativa with 12 samples.

Results

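The 10 genes described here act in the jasmonate pathway of rice. They are the 8 repressor genes JAZ6 to JAZ13 and the 2 enzyme genes AOS2 and AOC, taken by their identifiers. These genes and the other lists below were chosen with earlier results of these data known. The shares of all genes set beside their counts thus describe the background and are not a test. All 10 were listed in each of the 12 RNA-seq libraries, among 23715 identifiers that had the same name in both cultivars, and all 10 passed the filter on low values. RNA came from shoots, all aerial parts taken at an age of 3 weeks, of Nip (Nipponbare, a Japonica cultivar) and 93-11 (an Indica cultivar), with 3 normal and 3 heat stress (HS) libraries of each. All seedlings grew in nutrient solution with 10 h of light of 800 µmol m-2 s-1 a day, and neither cultivar carried a transgene or a mutation named in the labels. HS seedlings were then held at 45 °C for 36 h, at a relative humidity over 80% and in dim light of 60 to 80 µmol m-2 s-1. No normal seedlings at that light and humidity were described, so heat, dim light and humidity cannot be told apart in any comparison of HS with normal.

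Jasmonate is made from linolenic acid of the chloroplast membranes. A lipoxygenase adds oxygen, allene oxide synthase (AOS) turns the product into an unstable epoxide, allene oxide cyclase (AOC) closes its ring, and later steps in the peroxisome and cytosol give jasmonate and its isoleucine conjugate, the active hormone. JAZ proteins hold transcription factors such as MYC2 inactive. The conjugate brings JAZ proteins to the F-box receptor COI1, which marks them for breakdown, and the freed factors switch on target genes that include the JAZ genes themselves. In leaves the pathway is best known for the responses to wounding and insects.

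The 8 repressors fall into 2 named sets. JAZ6 (LOC_Os03g28940), JAZ7 (LOC_Os07g42370) and JAZ8 (LOC_Os09g26780) carry the names TIFY10A, TIFY10B and TIFY10C in RefSeq. The names TIFY11A to TIFY11E belong to JAZ9 (LOC_Os03g08310), JAZ10 (LOC_Os03g08330), JAZ11 (LOC_Os03g08320), JAZ12 (LOC_Os10g25290) and JAZ13 (LOC_Os10g25230). In the RefSeq order of protein-coding genes on chromosome 3, JAZ9, JAZ11 and JAZ10 stand next to each other with 0 such genes between neighbours. On chromosome 10, 2 protein-coding genes lie between JAZ13 and JAZ12. The enzyme genes AOS2 (LOC_Os03g12500) and AOC (LOC_Os03g32314) are on chromosome 3, apart from the JAZ cluster. Neighbouring JAZ genes can be similar enough to share reads, and how reads with several matching positions were treated in these values is not known, so the split of reads within each cluster is uncertain. Their sequences were not used here.

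Levels are FPKM, the fragments of a gene scaled by its length and by the fragments of the library, as the authors deposited them. Summed over all genes, FPKM was 785851 to 798491 in Nip normal, 552167 to 561203 in Nip HS, 582896 to 617044 in 93-11 normal and 794246 to 810922 in 93-11 HS libraries. These sums moved in opposite directions upon HS, to 0.703 of normal in Nip and to 1.35 of normal in 93-11, so the scaling of the libraries bears on each fold change below. The files hold no counts and the depth of a library is unknown. Steps among low values put replicates 2 and 3 at 0.818 to 1.17 times the depth of replicate 1 of their group. These are rough estimates, since the most common step held only 1.19% to 7.33% of the low genes compared. The median step held 0.12% to 0.287%. The green tissue was checked by 5 leaf markers (Rubisco small subunit and light-harvesting genes), whose summed level was 29134 to 30567 FPKM in Nip normal and 21535 to 23725 FPKM in 93-11 normal libraries.

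Differences were tested with limma on log2(FPKM + 1), within each cultivar, and a DEG needed an adjusted p (Benjamini-Hochberg, over all genes tested) below 0.01 and a change of 1 or more on the log2 scale in either direction. The log2(FPKM + 1) scale understates the change of low genes. Upon HS, 8 of the 10 genes fell and 0 rose in Nip, where 17.8% of the 20724 genes tested fell and 9.69% rose. The median log2 fold change of the 10 genes was -1.5, against -0.04 over all genes. In 93-11, 5 of the 10 fell and 0 rose, where 27.5% of the 20340 genes tested fell and 22.7% rose, and the median was -0.998 against 0.03. The order of the cultivars in these counts and medians rests on the scaling of the libraries. After quantile normalization 6 fell in each cultivar, with medians of -1.09 in Nip and -1.44 in 93-11, and with libraries rescaled to equal sums 5 fell in Nip and 6 in 93-11, with medians of -1.01 and -1.43. At an unadjusted p under 0.05 in limma, 0 of the 10 were higher upon HS in Nip and 1 was higher in 93-11. JAZ9, JAZ10, JAZ11 and AOC fell in both cultivars. HS and normal libraries did not overlap for 10 of 10 genes in either cultivar, and the same held for 81.9% of all genes in Nip and 87.7% in 93-11, so most genes of any kind showed no overlap.

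**Figure D1:**
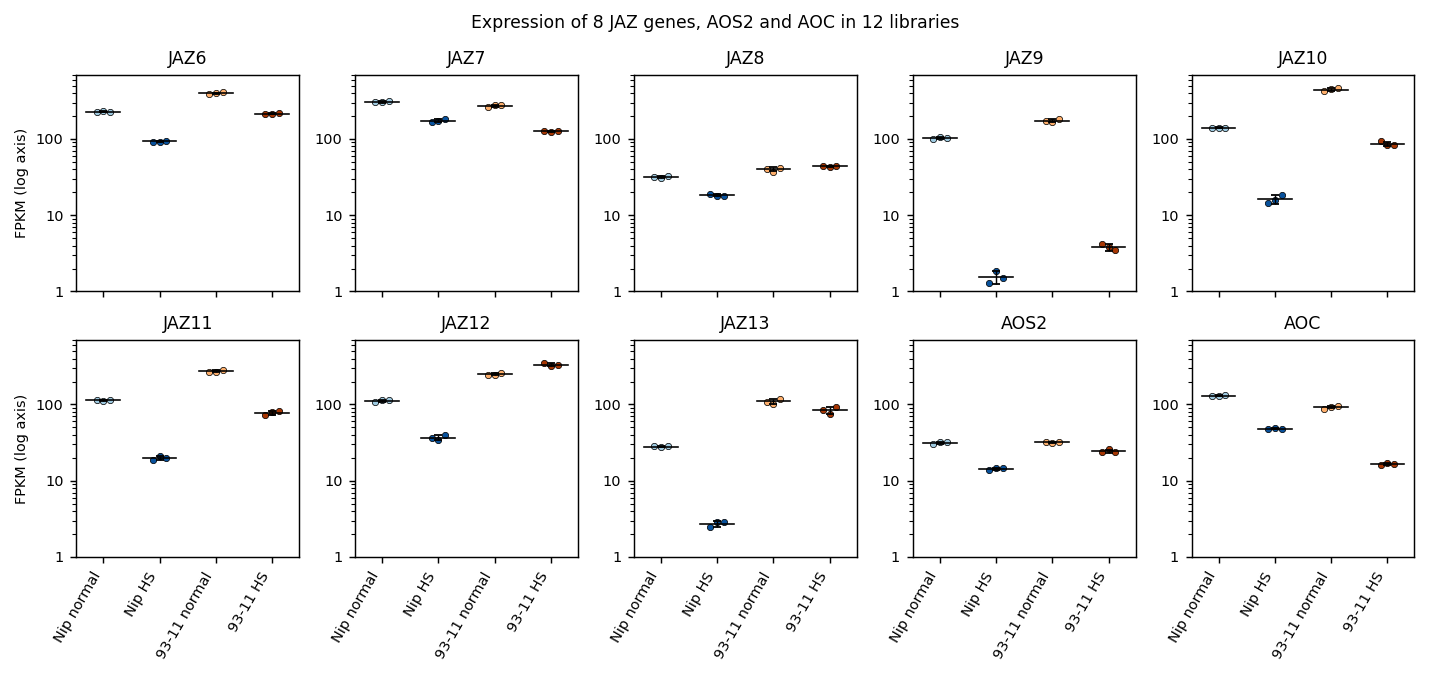
FPKM (log axis) of JAZ6 to JAZ13, AOS2 and AOC in each of the 12 libraries, by group. Points are libraries, the long bar is the mean and the error bar the SD of 3 libraries. JAZ9 drops to between 1.29 and 4.21 FPKM in the 6 HS libraries, while JAZ12 is highest in the 93-11 HS libraries as deposited, an order that turns against 93-11 normal after quantile normalization and with equal sums.

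JAZ9, the repressor with the largest decrease in each cultivar, was the lowest of the 10 genes in both HS groups. In Nip normal libraries it was at 99.2, 105 and 103 FPKM, and in Nip HS libraries at 1.29, 1.87 and 1.5 FPKM. In 93-11 it was at 173, 165 and 185 FPKM in normal and 4.21, 3.79 and 3.45 FPKM in HS libraries. Every normal library lay far above every HS library, and the HS mean was 1.52% of the normal mean in Nip and 2.19% in 93-11. The log2 fold change was -5.34 ± 0.082 (SE, adjusted p = 3.275e-10) in Nip and -5.19 ± 0.071 (adjusted p = 9.437e-11) in 93-11. The difference between these responses, 0.16 ± 0.115, did not pass the test (adjusted p = 0.2248). That does not make the responses equal, since the added 1 narrows changes at such low HS levels. The mean FPKM fell 65.86 times in Nip and 45.65 times in 93-11, and the difference ranged from -0.56 to 0.49 over the alternatives.

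JAZ10, next to JAZ11 in the chromosome 3 cluster, fell less steeply than JAZ9. It was at 141, 141 and 137 FPKM in Nip normal libraries and at 14.5, 15.7 and 18.5 FPKM in Nip HS libraries. In 93-11 the values were 421, 446 and 467 FPKM in normal and 93.4, 82.7 and 83.4 FPKM in HS libraries. The groups did not overlap, and the 93-11 HS libraries stayed closer to the level of Nip normal than of Nip HS. JAZ10 fell by 3.03 on the log2 scale in Nip (SE 0.075, adjusted p = 3.872e-09) and by 2.35 in 93-11 (SE 0.060, adjusted p = 2.425e-09).

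JAZ11 lies between JAZ9 and JAZ10 and had a similar course to JAZ10. It was at 114, 112 and 113 FPKM in Nip normal and 18.8, 20.9 and 19.6 FPKM in Nip HS libraries. The 93-11 libraries held 270.0, 267 and 286 FPKM in normal growth and 72.9, 80.7 and 81.0 FPKM upon HS. No HS library reached the level of a normal library of its cultivar. The decrease was 2.46 on the log2 scale in Nip (log2 fold change -2.46, SE 0.044, adjusted p = 6.827e-10) and 1.80 in 93-11 (log2 fold change -1.80, SE 0.053, adjusted p = 5.649e-09).

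The chromosome 10 pair behaved differently in the 2 cultivars. JAZ12 was at 107, 113 and 114 FPKM in Nip normal and 35.9, 34.5 and 39.7 FPKM in Nip HS libraries. In 93-11 normal libraries it was at 246, 242 and 259 FPKM, and in 93-11 HS libraries at 346, 323 and 327 FPKM. As deposited, HS libraries thus lay below normal in Nip and above normal in 93-11, where the sign turned after quantile normalization (log2 fold change -0.07) and with equal sums (-0.02). JAZ12 fell by 1.58 on the log2 scale in Nip (SE 0.054, adjusted p = 2.748e-08), and its log2 fold change of 0.41 ± 0.045 in 93-11 (adjusted p = 2.538e-05) was too small to be called. The responses differed by 1.99 ± 0.072 on the log2 scale, 93-11 minus Nip (adjusted p = 5.391e-11, interaction term over 12 libraries).

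JAZ13 had the largest difference between the cultivars of the 10 genes. It was at 28.3, 27.7 and 28.1 FPKM in Nip normal and only 2.44, 2.84 and 2.84 FPKM in Nip HS libraries. In 93-11 it was at 109, 103 and 118 FPKM in normal and 84.4, 73.9 and 92.7 FPKM in HS libraries. The Nip HS libraries held 9.65% of the normal mean, and the 93-11 HS libraries 76.2%. JAZ13 fell by 2.97 in Nip (SE 0.067, adjusted p = 2.16e-09), its value of -0.39 ± 0.085 in 93-11 was not called, and the difference was 2.58 ± 0.110 (adjusted p = 2.427e-10). JAZ12 and JAZ13 were the 2 members with a called difference in response. Over all 19583 genes tested, 20.9% had a called difference in this direction and 19.6% in the other, so 2 of the 10 genes is near the background. For JAZ6, JAZ8, JAZ10, JAZ11 and AOS2 the difference was 0.40, 0.88, 0.68, 0.66 and 0.71, under the fold threshold, and each was negative with equal sums.

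Among the TIFY10 genes, JAZ6 ranked second of the 10 genes in each of the 4 groups. It was at 229, 229.9 and 227 FPKM in Nip normal and 92.6, 92.3 and 94.1 FPKM in Nip HS libraries. The 93-11 libraries held 393, 395 and 407 FPKM in normal growth and 212, 214 and 217 FPKM upon HS. Replicates lay close together and HS libraries were lower in each cultivar. JAZ6 fell by 1.29 in Nip (SE 0.026, adjusted p = 1.337e-09), and its log2 fold change of -0.89 in 93-11 missed the fold threshold. This pair of calls rests on the scaling. With libraries rescaled to equal sums the values were -0.79 in Nip, no longer a DEG, and -1.32 in 93-11, a DEG, and after quantile normalization they were -0.77 and -1.40, with the same calls.

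JAZ7 was the most abundant of the 10 genes in Nip. It was at 302, 307 and 318 FPKM in Nip normal and 168, 170.2 and 181 FPKM in Nip HS libraries, with a log2 fold change of -0.83 that was not called. In 93-11 it went from 264, 276 and 278 FPKM to 129, 124 and 126 FPKM and fell by 1.10 on the log2 scale (SE 0.039, adjusted p = 1.586e-08), a call that was lost when the test was set against a change of 1 on the log2 scale. Its decrease was thus called in 93-11 alone, but the difference between the responses, -0.27 ± 0.052, was too small to be called as deposited. After quantile normalization that difference was -1.13, and with equal sums -1.22, and both were called.

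JAZ8 was the lowest of the TIFY10 genes and is known in rice for its part in resistance to bacterial blight. It was at 31.8, 30.8 and 32.3 FPKM in Nip normal and 19.2, 17.8 and 18.0 FPKM in Nip HS libraries. In 93-11 it was at 40.9, 37.2 and 42.1 FPKM in normal and 43.9, 42.7 and 44.4 FPKM in HS libraries. HS libraries were lower than normal in Nip and slightly higher in 93-11. The log2 fold changes of -0.75 in Nip and 0.12 in 93-11 (adjusted p = 0.06471) were not called, and the 93-11 value turned negative under each of 3 other scalings, at -0.08, -0.30 and -0.11.

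AOS2, an allene oxide synthase gene, held nearly the same level in normal seedlings of the 2 cultivars. It was at 30.6, 31.9 and 32.4 FPKM in Nip normal and 31.7, 31.3 and 32.4 FPKM in 93-11 normal libraries, and these ranges overlapped. Upon HS it was at 13.8, 14.8 and 14.5 FPKM in Nip and 23.6, 25.8 and 23.7 FPKM in 93-11. AOS2 fell by 1.09 in Nip (SE 0.048, adjusted p = 1.29e-07), which was no longer called with equal sums (-0.61), after quantile normalization (-0.90) or when the test was set against a change of 1 on the log2 scale. In 93-11 the value was -0.37 ± 0.053 and not called.

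AOC makes the ring of the jasmonate precursor, and its loss in the rice mutant hebiba leaves plants without jasmonate. It was at 127, 131 and 133 FPKM in Nip normal and 47.1, 48.7 and 47.6 FPKM in Nip HS libraries. In 93-11 it was at 88.1, 94.0 and 94.6 FPKM in normal and 16.1, 17.2 and 16.7 FPKM in HS libraries. The 93-11 HS libraries were the lowest of the 4 groups, which of the JAZ genes held only for JAZ7. AOC fell by 1.43 in Nip (SE 0.032, adjusted p = 2.259e-09), not called with equal sums (-0.93), and by 2.40 in 93-11 (SE 0.050, adjusted p = 8.028e-10). The difference of -0.97 ± 0.056 lay just under the fold threshold as deposited and was called after quantile normalization (-1.36), with equal sums (-1.92) and with median-ratio factors (-1.23), as well as with a pseudocount of 0.1 (-1.02) or without replicate 1 of 93-11 normal (-1.01).

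**Figure D2:**
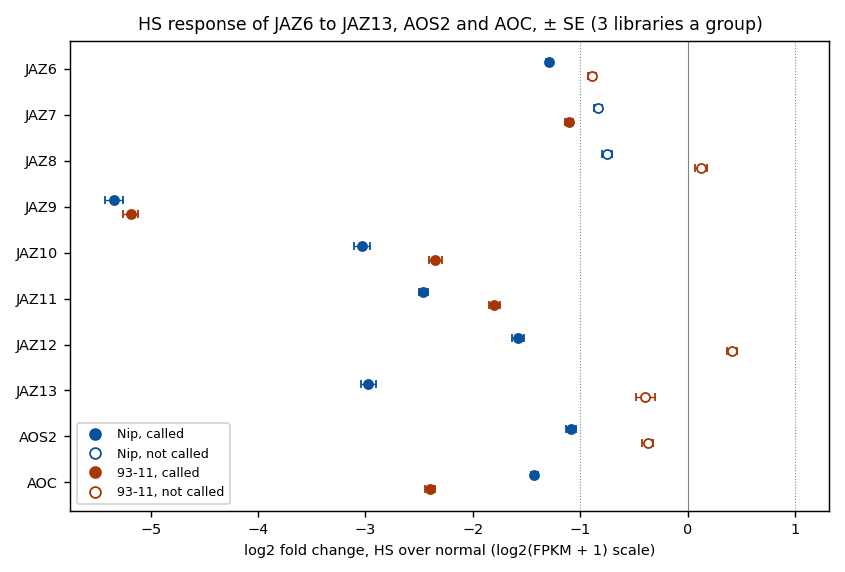
Log2 fold change of HS over normal on the log2(FPKM + 1) scale for the 10 genes in Nip and 93-11, with error bars of 1 SE from 3 libraries a group; filled points are DEGs and dotted lines mark 1 and -1. JAZ9 lies near -5 in both cultivars, at -5.34 and -5.19, while JAZ12 and JAZ13 lie at -1.58 and -2.97 in Nip but at 0.41 and -0.39 in 93-11; the 0.41 of JAZ12 turns negative after quantile normalization and with equal sums.

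The 3 other scalings made the values of the 10 genes higher in Nip and lower in 93-11. The change in log2 fold change under each scaling was also taken gene by gene, and its median over all genes is given. Rescaling each library to an equal FPKM sum gave a median change of 0.48 in Nip and -0.41 in 93-11. The median change was upwards in both with quantile normalization, 0.099 in Nip and 0.11 in 93-11, and was 0.045 and -0.20 with median-ratio factors. JAZ9, JAZ10, JAZ11, JAZ12 and JAZ13 were DEGs in Nip under all 4 scalings, and JAZ7, JAZ9, JAZ10, JAZ11 and AOC were in 93-11. With equal sums 5 genes fell in Nip in place of 8, since JAZ6, AOS2 and AOC were lost. The share of DEGs that rose, over all genes, was 35.3% as deposited and 66.4% under that scaling in Nip, and 45.3% and 31.6% in 93-11. The share also moved when 1 library was left out, since a gene had to reach 1 FPKM in 3 libraries of the fit. Leaving out replicate 1, 2 or 3 of 93-11 normal thus dropped genes that reached 1 FPKM in normal libraries alone. Then 17911 to 17925 genes passed the filter, 3523 to 3583 fell in place of 5589, and 56.3% to 56.9% of the DEGs rose. Without 1 of the 93-11 HS libraries the share went the other way, to between 40.7% and 41%. The called differences of JAZ12 and JAZ13 held under the 4 scalings, at 1.06 to 1.99 and 1.83 to 2.58. JAZ12 in 93-11 had no fixed sign, with 0.41 as deposited, 0.18 with median-ratio factors, -0.07 after quantile normalization and -0.02 with equal sums.

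**Figure D3:**
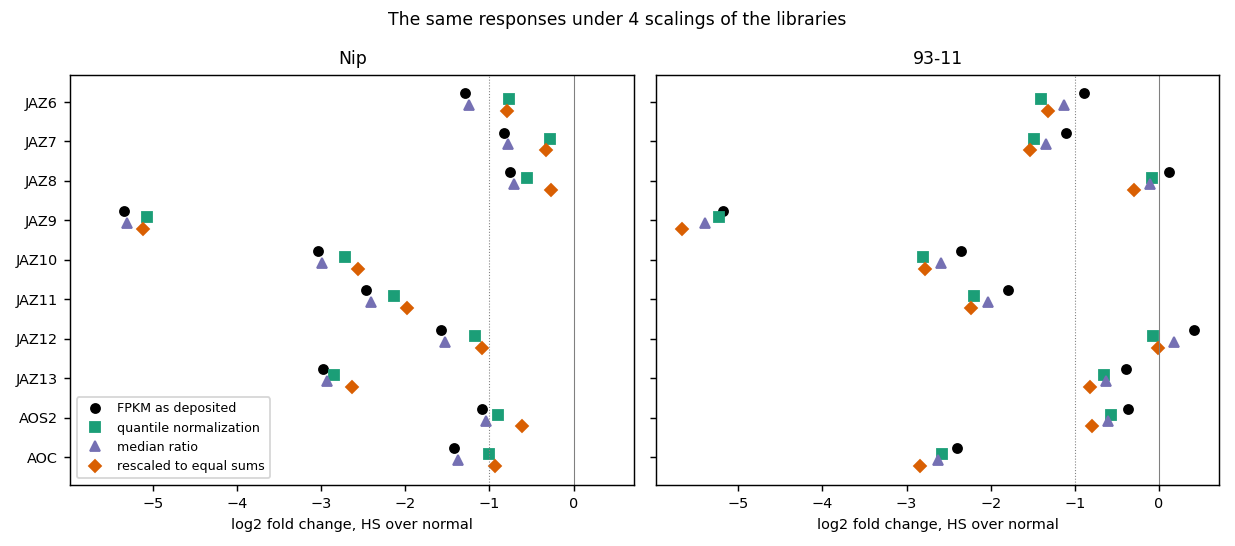
Log2 fold change of HS over normal for the 10 genes in Nip (left) and 93-11 (right) under 4 scalings of the libraries, given by the 4 symbols; the dotted line marks -1. All 10 genes lie below 0 in Nip under each scaling, while in 93-11 JAZ8 and JAZ12 lie on both sides of 0.

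Levels between the cultivars were compared in the fit of 12 libraries. The study's methods name the Nip and 93-11 genomes for the alignment, but which genome gave the values of each cultivar is not stated. A difference in level thus cannot be told apart from one in mapping or gene model. In normal growth JAZ10, JAZ11, JAZ12 and JAZ13, all of the TIFY11 set, were higher in 93-11, by 1.66, 1.27, 1.15 and 1.93 on the log2 scale. These were 4 of 10 genes higher and 0 lower, where 7.14% of all genes were higher and 13.4% lower in 93-11, and at an unadjusted p under 0.05 in limma 2 of the 10 were lower. JAZ6 and JAZ9, at 0.80 and 0.76, missed the fold threshold and passed it under the 3 other scalings. The call of JAZ12 was lost when the test was set against a change of 1 on the log2 scale. JAZ7 (-0.18), JAZ8 (0.33), AOS2 (0.01) and AOC (-0.49) were not called.

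Upon HS, 6 of the 10 genes were higher in 93-11 than in Nip and 1 was lower, where 16.5% of all genes were higher and 27.2% lower. JAZ13 differed most, by 4.51 ± 0.078 on the log2 scale (adjusted p = 1.87e-14), with a mean of 83.7 FPKM in 93-11 HS and 2.71 FPKM in Nip HS. JAZ12 followed with 3.15, then JAZ10 with 2.35, JAZ11 with 1.93, JAZ8 with 1.21 and JAZ6 with 1.20. AOC was the gene with a lower level in 93-11, by -1.47 ± 0.040 (adjusted p = 1.231e-12). JAZ6 (0.63 after quantile normalization, 0.69 with equal sums) and JAZ8 (0.73 with equal sums) lost the call under the scalings named. JAZ9 (0.92), AOS2 (0.72) and JAZ7 (-0.45) were not called. JAZ9 was called after quantile normalization (1.42), with a pseudocount of 0.1 (1.26) and without replicate 2 of Nip HS (1.01), and JAZ7 after quantile normalization. The cultivar comparisons share libraries with the HS comparisons, and their values are not independent of them.

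FPKM is scaled by gene length, so levels can be set side by side within a group. In Nip normal libraries JAZ7 led with 309 ± 8.08 FPKM (SD, n = 3), before JAZ6 with 229 ± 1.34, and JAZ13 was last with 28.1 ± 0.296. Neighbours in the order whose libraries overlapped there were JAZ11 with JAZ12 and AOS2 with JAZ8. In 93-11 normal libraries JAZ10 led with 445 ± 23.0 FPKM, before JAZ6 with 399 ± 7.44, and JAZ11 and JAZ7 overlapped. Upon HS JAZ7 still led in Nip, at 173 ± 7.23 FPKM, and JAZ11, JAZ8, JAZ10 and AOS2 overlapped each with the next. In 93-11 HS libraries JAZ12 led with 332 ± 12.6 FPKM, and JAZ10, JAZ13 and JAZ11 overlapped each with the next. JAZ9 was last in both HS groups.

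Summed over the 8 JAZ genes, FPKM was 1064 ± 10.5 in Nip normal and 362 ± 12.4 in Nip HS libraries, and 1964 ± 68.8 in 93-11 normal and 968 ± 20.7 in 93-11 HS libraries (SD, n = 3). The sum upon HS was 0.340 of normal in Nip, below the ratio of 0.703 of the whole libraries, and 0.493 in 93-11, where the whole libraries went to 1.35. As deposited the decrease was thus larger in Nip, but relative to the whole libraries it was larger in 93-11. The make-up of the sum shifted. JAZ7 took 29.0% of it in Nip normal and 47.9% in Nip HS libraries, while in 93-11 it took 13.9% and 13.0%. JAZ12 took 12.7% in 93-11 normal and 34.3% in 93-11 HS libraries, but 10.5% and 10.1% in Nip. JAZ9 took 9.61% and 0.430% in Nip, and 8.87% and 0.394% in 93-11.

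Ratios of 2 genes within a library do not depend on the factor by which that library is scaled. The ratios given were chosen after their values were seen and carry no test. JAZ12 over JAZ13 was 3.97 ± 0.158 in Nip normal and 13.6 ± 1.34 in Nip HS, and 2.27 ± 0.0846 in 93-11 normal and 4.0 ± 0.431 in 93-11 HS libraries. It was thus higher upon HS in each cultivar. JAZ9 over JAZ10, of the same cluster, was 0.732 ± 0.0241 in normal and 0.0963 ± 0.0200 in HS libraries of Nip, and 0.392 ± 0.0198 in normal and 0.0441 ± 0.00237 in HS libraries of 93-11, so JAZ9 decreased far more than JAZ10. AOC over AOS2 was 4.12 ± 0.0409 in normal and 3.33 ± 0.0742 in HS libraries of Nip, and 2.90 ± 0.117 in normal and 0.684 ± 0.0182 in HS libraries of 93-11. In 93-11 HS libraries the cyclase gene was thus the lower of these enzymes, and in the other 3 groups the higher.

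**Figure D4:**
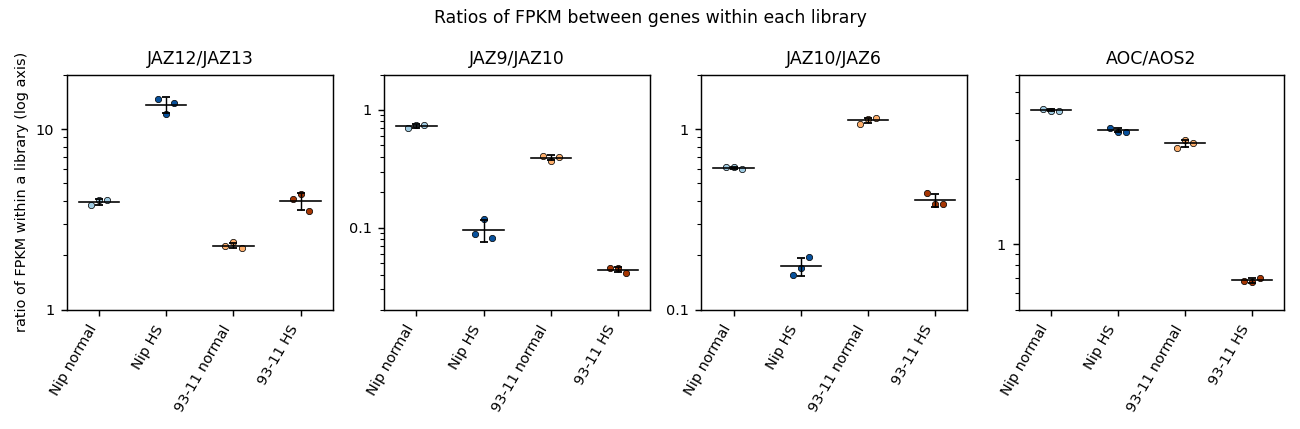
Ratios of FPKM within each library (log axes, each with its own range) for JAZ12 over JAZ13, JAZ9 over JAZ10, JAZ10 over JAZ6 and AOC over AOS2, by group. Points are libraries, the long bar is the mean and the error bar the SD of 3 libraries. AOC over AOS2 lies at 0.684 in 93-11 HS libraries and at 2.90 or above in the other groups.

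Other genes of the pathway were counted from lists of the same kind. Of 7 other JAZ genes 4 were tested, 2 fell in Nip, where 17.8% of all genes fell, and 1 in 93-11, where 27.5% of all genes fell, so the latter count is near the background. As deposited 0 rose (1 was higher in each cultivar at an unadjusted p under 0.05 in limma). JAZ5 fell in Nip, from 14.0 to 16.2 FPKM down to 1.5 to 1.80 FPKM (log2 fold change -2.54), and JAZ1 also fell there (-1.21, but -0.75 and -0.71, not called, after quantile normalization and with equal sums). JAZ2 fell in 93-11 (-1.68), from 9.08 to 11.2 FPKM to 1.77 to 3.31 FPKM. In 93-11 JAZ5 had a value of -0.84 and was called under the 3 other scalings, and JAZ2 in Nip (-0.80) was called with a pseudocount of 0.1. JAZ3, not called as deposited (0.64 in Nip), was called as higher in Nip after quantile normalization (1.02) and with equal sums (1.15). The median log2 fold change of the 4 genes was -1.01 in Nip and -0.41 in 93-11, against -0.04 and 0.03 over all genes. JAZ4, JAZ14 and JAZ15 were not analysed here.

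Of 8 other synthesis genes 7 were tested, of which 2 fell in Nip and 3 fell in 93-11, against 17.8% and 27.5% of all genes, and 0 rose (1 was higher in each cultivar at an unadjusted p under 0.05 in limma). The lipase gene EG1 did not pass the filter. RCI-1, a chloroplast lipoxygenase, stood at 2970.0 to 3049.6 FPKM in Nip normal and 21.0 to 21.6 FPKM in Nip HS libraries and fell by 7.08 on the log2 scale. In 93-11 it went from 186 to 206 FPKM down to 7.44 to 7.94 FPKM and fell by 4.49. The second allene oxide synthase gene, AOS1, fell in Nip (log2 fold change -1.65) and in 93-11 (-2.47). AOS1 over AOS2 was 1.12 in Nip normal and 0.740 in Nip HS libraries, and 3.57 and 0.809 in 93-11. HI-LOX, a lipoxygenase induced by herbivores, fell in 93-11 (-1.96) and had a log2 fold change of 0.12 in Nip, which was not called. OPR7, JAR1, JAR2 and LOX9, which cover the reductase, the conjugating enzymes and a further lipoxygenase, were called in neither cultivar as deposited, and OPR7 was called in 93-11 with equal sums (-1.02). The median of the list was -0.61 in Nip and -0.59 in 93-11, against -0.04 and 0.03 over all genes, but -0.11 and -1.02 with equal sums.

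Of 8 genes of perception tested, 1 rose in Nip and 2 rose in 93-11, shares near the 9.69% and 22.7% of all genes that rose. With equal sums 0 rose in 93-11. None was called lower in either cultivar (3 in Nip and 1 in 93-11 were lower at an unadjusted p under 0.05 in limma). The receptor-type gene COI2 was at 13.1 to 14.4 FPKM in Nip normal and 28.0 to 29.9 FPKM in Nip HS libraries, and at 9.42 to 10.7 and 26.3 to 27.6 FPKM in 93-11. It rose by 1.02 in Nip and by 1.33 in 93-11, and lost the call in Nip without replicate 3 of Nip normal (0.99) or replicate 2 of Nip HS (just under 1), and in 93-11 with equal sums (0.94). MED25, a Mediator subunit that works with MYC2 in Arabidopsis, rose in 93-11 (1.22), but was not called with equal sums (0.82) or median-ratio factors (0.99). The calls of COI2 in Nip and of MED25 in 93-11 were lost when the test was set against a change of 1. The median log2 fold change of this list was 0.19 in Nip and 0.72 in 93-11, against -0.04 and 0.03 over all genes, and the order of the cultivars turned with equal sums (0.70 and 0.29).

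The last list held genes that respond to jasmonate or draw it or its precursor away. Of 5 tested, 4 fell in Nip and 3 in 93-11, against 17.8% and 27.5% of all genes, and 0 rose (0 in Nip and 1 in 93-11 were higher at an unadjusted p under 0.05 in limma). RERJ1, a bHLH factor induced by jasmonate, went from 62.1 to 66.0 FPKM down to 3.27 to 4.15 FPKM in Nip and from 378 to 404 FPKM down to 5.89 to 7.91 FPKM in 93-11. It fell by 3.84 in Nip and by 5.59 in 93-11. CYP94C2b, which oxidises the isoleucine conjugate, fell by 3.35 in Nip and 2.60 in 93-11, and HPL3, a hydroperoxide lyase that competes with AOS for substrate, fell by 2.24 in Nip and 4.45 in 93-11. JIOsPR10 fell in Nip (-1.01) and was not called there under the 3 other scalings, at -0.69, -0.52 and -0.96, nor without replicate 3 of Nip normal (just under the fold threshold) or replicate 2 of Nip HS (-0.97). In 93-11 JIOsPR10 was at 0.46 and not called. JAmyb, the remaining gene of the list, was called in neither cultivar. The median of the list was -2.24 in Nip and -2.60 in 93-11, against -0.04 and 0.03 over all genes.

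**Figure D5:**
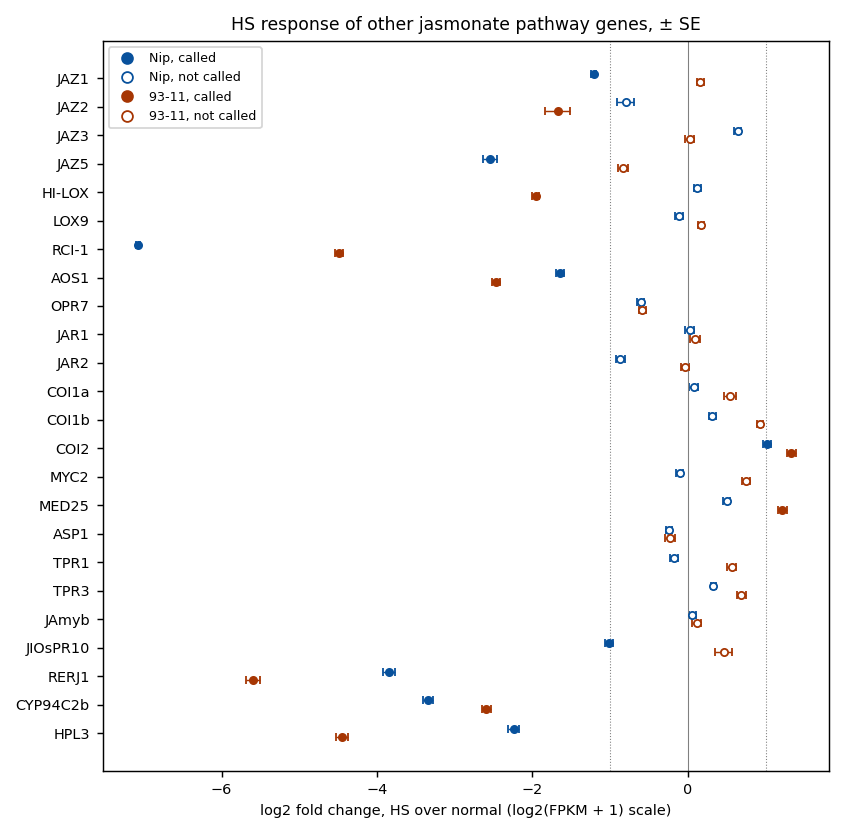
Log2 fold change of HS over normal on the log2(FPKM + 1) scale for 24 other genes of the jasmonate pathway in Nip and 93-11, with error bars of 1 SE; filled points are DEGs and dotted lines mark 1 and -1. RERJ1, CYP94C2b, HPL3, RCI-1 and AOS1 fell in both cultivars, and COI2 rose in both.

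Leaf markers also fell upon HS, with a larger decrease in 93-11 than in Nip. As deposited, the medians of the 10 genes had the other order, at -1.5 in Nip and -0.998 in 93-11. That order of the 10 genes turned after quantile normalization and with equal sums. In Nip 4 of 5 leaf markers fell, with a median log2 fold change of -2.01, and in 93-11 5 of 5 fell, with a median of -4.76, against 17.8% and 27.5% of all genes. After quantile normalization 2 of 5 fell in Nip, with a median of -0.79 and 1 positive value. Their summed level went to between 7686 and 8172 FPKM in Nip HS and between 1112 and 1149.7 FPKM in 93-11 HS libraries. The 3 heat markers HSP16.9A, HSP101 and HSFA2a rose in both cultivars. The root markers RCc3 and Lsi2 stayed at or under 0.607 FPKM in every library, and Lsi1 was at 7.60 to 9.21 FPKM in Nip normal, 28.6 to 30.5 in Nip HS, 7.71 to 8.79 in 93-11 normal and 0.331 to 0.774 in 93-11 HS libraries. Their part in the values of the 10 genes was not tested, and in such bulk tissue fewer cells of a type and less RNA per cell cannot be told apart.

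The genes most like JAZ6 across the 12 libraries were LOC_Os04g30420 (Pearson r = 0.998 on log2(FPKM + 1)), LOC_Os02g24080 (r = 0.995) and JAZ11 (r = 0.995). JAZ10 and JAZ11 had r = 0.998 with each other, JAZ8 and JAZ12 r = 0.987, and JAZ7 and AOC r = 0.982. AOC and JAZ12 had r = -0.28. The 12 libraries fall into 4 groups and share the scaling of each library, so these correlations describe 4 group levels and are not tests.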

How the data were processed

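RNA-seq libraries of Nip and 93-11 seedlings were analysed in 4 groups of 3, which the study's methods call biological replicates. For each library the authors deposited a list of genes with their FPKM. The methods name STAR, featureCounts and DESeq2, and the submitters' processing notes name HISAT2 (2.0.4), StringTie (1.3.4d) and DESeq2; which of them gave the FPKM values, and the genome builds, are not given in the sources used here. No counts were used, so no counting error is given. The members and lists were chosen with earlier results of these data known.

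The genes tested reached 1 FPKM in 3 or more libraries of a fit. They were tested with limma (3.58.1, R 4.3.3), trended prior, on log2(FPKM + 1), without further scaling. Each cultivar was fitted alone, and a fit of 12 libraries over shared identifiers gave the difference in response and the cultivar contrasts. A DEG had an adjusted p (Benjamini-Hochberg) below 0.01 and changed by 1 or more on the log2 scale. On simulated data with 200 genes changed by 2 on the log2 scale, 199 were recovered in Nip (20087 genes, 0 wrong calls), 196 in 93-11 (19559 genes, 2 wrong) and 199 for the difference (18934 genes, 1 wrong). In that simulation no other gene responded to HS, and HS and normal libraries did not differ in scaling. The recovery thus says nothing about calls near the fold threshold or about errors of scaling. All 10 genes were named, and of the other lists the DEGs with the largest changes. The genes most like JAZ6, the member with the highest mean FPKM over the 12 libraries, were the 3 with the highest r. RefSeq (assembly ASM3414082v1) held none of the identifiers used in the files, so the 10 genes were matched to it by name and chromosome (10 of 10 matched), for names and gene order only. The names and roles of the other listed genes come from general knowledge of rice loci. Python 3.11.15 was used for summaries and plots.

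Replicate numbers come from the labels. Deviations of same-numbered libraries had correlations of 0.034 to 0.042 in Nip and -0.060 to 0.053 in 93-11. Differently numbered libraries had -0.043 to 0.005 in Nip, below all same-numbered ones, and -0.07 to 0.081 in 93-11. All these correlations were small, so the numbers were not treated as pairs, and a replicate block was fitted as an alternative. Alternatives were a pseudocount of 0.1, no filter, quantile normalization, rescaling to a sum of 1000000, median-ratio factors, a replicate block, each library left out, limma's treat test against 1 on the log2 scale, an adjusted p of 0.05 as the limit, and a fit of 12 libraries for the HS comparisons.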

Additional observations from a re-analysis of the deposited data

Results flagged for a closer look

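The responses of JAZ12 and JAZ13 to HS differed between Nip and 93-11 by the interaction test over 12 libraries. They were 2 of the 10 genes, where 20.9% of the 19583 genes tested had a called difference in this direction. The count is thus near the background. For JAZ12 the difference in log2 fold change was 1.99 (93-11 minus Nip, limma adjusted p = 5.391e-11), and 3 of 3 HS libraries lay below all normal libraries in Nip and, as deposited, above all of them in 93-11. The 93-11 log2 fold change of JAZ12, 0.41, was -0.07 after quantile normalization and -0.02 with equal sums. For JAZ13 it was 2.58 (adjusted p = 2.427e-10), and 3 of 3 HS libraries lay below all normal libraries in each cultivar.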

How the results depend on the processing

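The count of the 10 genes called stayed within 1.5 times of the value reported in 87 of 90 recomputed counts. That tally says little about the scaling. Of the 87, 48 came from leaving out 1 library, and the limit passes 6 in place of 4. Outside the limit, the count was 5 in place of 8 for HS in Nip with equal sums. For the difference in response it was 4 in place of 2 after quantile normalization and with equal sums. Within the limit, 6 fell in place of 8 in Nip after quantile normalization. Under each of the 3 other scalings, 6 fell in place of 5 in 93-11. In normal growth 6 in place of 4 were then higher in 93-11 than in Nip. Upon HS, 4 in place of 6 were higher in 93-11 with equal sums. With the replicate block the counts were 8 in Nip, 5 in 93-11 and 2 for the difference in response, and 4 and 7 for the cultivar comparisons in normal growth and upon HS, as without it, and no call of the 10 genes changed. Leaving out each library in turn gave 8 to 8, 5 to 5, 2 to 3, 4 to 4 and 7 to 8.

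Signs turned in 27 recomputed values. After quantile normalization the log2 values were 0.30 for MYC2 in Nip, -0.083 for JAZ8, -0.067 for JAZ12 and -0.10 for JAZ1 in 93-11, -0.56 for the difference of JAZ6 and 0.12 for JAZ7 between cultivars in normal growth. With equal sums they were 0.39 for MYC2 in Nip, -0.30 for JAZ8, -0.016 for JAZ12 and -0.27 for JAZ1 in 93-11, and 0.26 for JAZ7 between cultivars in normal growth. The differences in response with equal sums were -0.54 for JAZ6, -0.0375 for JAZ8, -0.56 for JAZ9, -0.23 for JAZ10, -0.25 for JAZ11 and -0.19 for AOS2. With median-ratio factors the values were -0.11 for JAZ8 and -0.074 for JAZ1 in 93-11, -0.14 for the difference of JAZ9 and 0.19 for JAZ7 between cultivars in normal growth. JAZ3 in 93-11 was at -0.181 after quantile normalization, -0.40 with equal sums and -0.208 with median-ratio factors, and ranged from -0.035 to 0.06 as libraries were left out. AOS2 between cultivars in normal growth ranged from -0.016 to 0.024 as libraries were left out. The fold scale shifts with the scaling by construction, and which scaling is right was not tested. Depth is unknown, and JAZ9 and JAZ13 in Nip HS libraries, at 1.29 to 2.84 FPKM, are the members nearest to the filter. MYC2, JAZ3, OPR7 and JIOsPR10 were chosen after their values were seen. The planned search for promoter motifs was not run.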
